A study of Mus musculus and Acomys cahirinus with 84 samples.

Results

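The collagen genes were taken as every gene whose symbol is Col, a number, the letter a and a number. This gave 44 genes in the mouse count table, of 56980 gene identifiers, and the same 44 genes in the Acomys cahirinus table, of 19818 gene names. The counts came from primary skin fibroblasts of C56BL6 mice (spelled as in the labels), of wild mice and of the African spiny mouse A. cahirinus, with 7 groups of 4 libraries per population and 84 libraries in all. Cultures were left untreated (0 Gy) or given 10 Gy or 20 Gy of gamma irradiation and were taken after 24 h or after 12 d, and the remaining group at 12 d was untreated and passaged. All groups were primary cultures sequenced as polyA RNA. Neither the age nor the sex of the animals nor the passage number was given in the labels. The 4 replicates of a group carried 4 animal codes, so the spread between them includes the spread between animals. All 24 h libraries were labelled batch B1 and all 12 d libraries batch B2, so an effect of time cannot be told apart from an effect of batch, and values of the 2 times were never tested against each other.

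Collagens are proteins of 3 chains wound around each other in a triple helix, and each chain has its own gene. The fibrillar collagens form the banded fibres of the dermis, where type I and type III dominate and type V sets the fibre diameter. Type IV forms the sheet of basement membranes, type VI forms beaded microfilaments around cells, type VIII forms hexagonal lattices, and type VII makes the anchoring fibrils that tie the epidermis to the dermis. The FACIT collagens sit on the surface of fibres, the multiplexins XV and XVIII join basement membranes to the matrix, and a few collagens span the cell membrane. Skin fibroblasts are the main source of dermal collagen. By these classes the 44 genes held 11 fibrillar chains, 6 of the basement membrane network, 6 of the beaded filament, 3 of the hexagonal network, 9 FACIT chains, 1 of the anchoring fibril, 4 transmembrane chains, 2 multiplexins and 2 others.

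The sequences of 4 promoters are shown because these genes carry the main contrasts of the irradiated cultures. Col1a2 encodes the second chain of type I collagen, Col3a1 the chain of type III, Col6a1 a chain of type VI and Col7a1 the chain of type VII. Each is the 250 bases before the transcription start in mouse (RefSeq, GRCm38.p6), 5′ to 3′ on the strand of the gene. Capitals mark a TATA box (the letters TATAAA), the CCAAT box, named by its letters, or a GC box (the letters GGGCGG), each read on either strand and none overlapping another.
Col1a2 (chr6:4505368-4505617, plus strand): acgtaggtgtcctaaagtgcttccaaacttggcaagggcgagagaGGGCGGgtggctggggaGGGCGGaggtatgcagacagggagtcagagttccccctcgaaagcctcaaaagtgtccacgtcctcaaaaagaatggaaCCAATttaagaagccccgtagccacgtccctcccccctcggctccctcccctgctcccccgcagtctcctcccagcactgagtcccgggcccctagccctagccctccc
Col3a1 (chr1:45311288-45311537, plus strand): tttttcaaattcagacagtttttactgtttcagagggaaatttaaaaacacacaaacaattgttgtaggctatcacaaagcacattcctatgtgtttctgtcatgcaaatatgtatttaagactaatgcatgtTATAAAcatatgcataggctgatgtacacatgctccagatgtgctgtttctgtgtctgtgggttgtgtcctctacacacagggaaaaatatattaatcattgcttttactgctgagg
Col6a1 (chr10:76726045-76726294, minus strand): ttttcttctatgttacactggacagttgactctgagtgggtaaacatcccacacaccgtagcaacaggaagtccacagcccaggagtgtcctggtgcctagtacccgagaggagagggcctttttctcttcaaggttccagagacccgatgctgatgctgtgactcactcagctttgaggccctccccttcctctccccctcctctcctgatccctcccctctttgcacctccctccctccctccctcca
Col7a1 (chr9:108953336-108953585, plus strand): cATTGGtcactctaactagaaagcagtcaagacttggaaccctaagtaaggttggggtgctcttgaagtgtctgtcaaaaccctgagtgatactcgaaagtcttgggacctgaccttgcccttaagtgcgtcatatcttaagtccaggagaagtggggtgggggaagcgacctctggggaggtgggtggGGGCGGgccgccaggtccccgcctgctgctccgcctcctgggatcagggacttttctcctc
Col1a2 held 1 CCAAT and 2 GGGCGG, Col3a1 held 1 TATAAA, Col6a1 held none of these letters in this window, and Col7a1 held 1 CCAAT, on the reverse strand, and 1 GGGCGG. The table held windows for 35 of the 44 collagen genes, 38 windows in all. TATAAA occurred in 13.2% of these and in 12.4% of all 32851 windows of this length. CCAAT occurred in 34.2% against 33.8%, and GGGCGG in 57.9% against 32.7%. These matches describe the letters only.

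The libraries held 26.65 M to 39.82 M counts (M stands for mega) in C56BL6, 17.42 M to 35.98 M in wild mice and 25.55 M to 52.86 M in A. cahirinus. A count of 3, taken as the floor of detection, was worth 0.075 to 0.113, 0.083 to 0.172 and 0.057 to 0.117 counts-per-million (CPM) in these populations. The summed level of 8 fibroblast markers was high in every library (10160 to 16920, 8808 to 16730 and 9140 to 19640 CPM). Endothelial (1.305 to 30.13 CPM over all libraries) and leukocyte markers (1.545 to 48.24) were low, Schwann markers reached 101.6 and pericyte markers 557.4. Several libraries stood apart. Replicate 1 of C56BL6 held Krt5, a basal keratinocyte keratin, at 60.2 to 413 CPM, where replicates 2 to 4 reached at most 1.19. In the wild mice, replicate 3 at 12 d had Col1a1 at 1343 CPM when untreated, against 14450 to 30070 in the other replicates, and between 70 and 83 genes were on (above 1 CPM in all its libraries) in it and off (below 0.1) in each other replicate, or the reverse. The same count was 0 between wild replicates 1 and 4 at 12 d but 88 between them at 24 h, and 18 between wild replicates 1 and 3 at 24 h but 70 at 12 d, so a wild replicate number cannot be taken to mark the same culture at both times. The library names nevertheless give each wild replicate number the same animal code at both times, and the cause of this mismatch was not tested. The wild replicate 1 library at 10 Gy and 24 h showed 17843 detected genes against 21846 to 22253 in the other replicates. The A. cahirinus libraries had 5 skeletal muscle markers at a summed 1369 to 12620 CPM, against 7.391 to 315.3 in C56BL6 and 7.232 to 2326 in wild mice. Results that rest on such libraries are given with and without them.

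Collagen transcripts took between 1.57% and 9.97% of all counts in the 12 d libraries. At 12 d the untreated C56BL6 cultures gave 4.88% ± 0.63 (SD, n = 4). The share was 1.93% ± 0.12 after 10 Gy, 2.0% ± 0.21 after 20 Gy and 3.36% ± 0.51 in the passaged cultures, and no irradiated library reached the lowest untreated one. In A. cahirinus the values were 4.75% ± 0.34, 3.82% ± 0.69, 3.88% ± 0.61 and 3.43% ± 0.45 in the same order, and the 20 Gy libraries (3.35% to 4.75%) overlapped the untreated ones (4.41% to 5.11%) through replicate 2. The untreated wild libraries spread from 1.84% in replicate 3 to 9.97% in replicate 2, and after 20 Gy they lay at 3.34% ± 1.33. At 24 h the means of the C56BL6 groups lay between 2.91% and 3.03%. Wild mice gave 4.32% ± 0.88 untreated, 2.96% ± 0.89 after 10 Gy and 3.51% ± 0.7 after 20 Gy at this time, and A. cahirinus 3.22% ± 0.39, 3.56% ± 0.54 and 3.57% ± 0.58, with overlap between the groups of each population. These shares were not tested, and in such bulk libraries fewer cells of a type and less RNA per cell cannot be told apart.

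**Figure D1:**
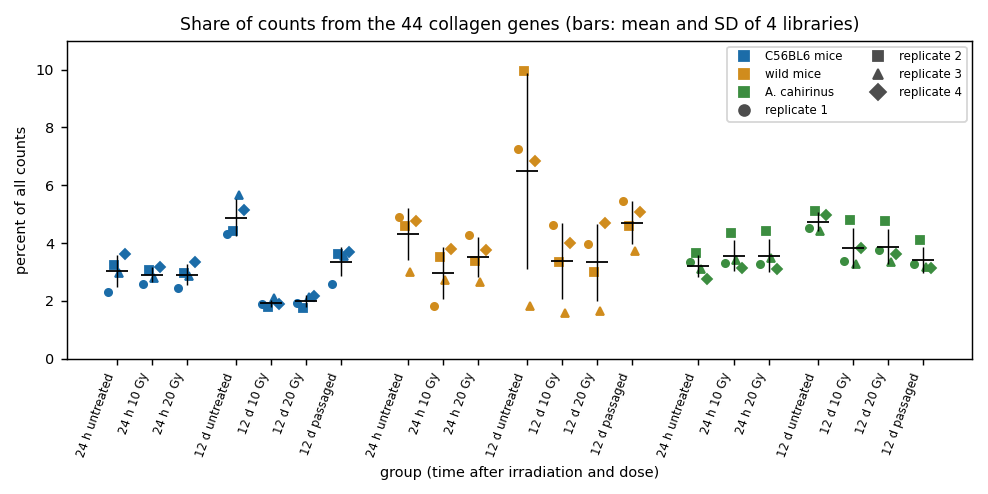
Share of all counts taken by the 44 collagen genes in each library (vertical axis, percent) in the 21 groups, with the mean and the SD of 4 libraries. The 12 d C56BL6 libraries lie at 4.31% to 5.66% when untreated and at 1.74% to 2.18% after 20 Gy, while the wild group without irradiation at 12 d holds 1 library at 1.84%.

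A small set of fibrillar chains made up most of this share. Col1a1, Col1a2, Col3a1, Col5a1 and Col5a2, 5 of the 44 genes, together held a median of 70.1% of collagen counts in C56BL6 libraries (56.7% to 83.3%), 77.5% in wild libraries (60.8% to 84.3%) and 84.2% in A. cahirinus libraries (69.2% to 87.8%). Set against gene length, in CPM per kilobase, Col3a1 led in untreated C56BL6 cultures at 12 d at 1723 ± 1032 (SD, n = 4), ahead of Col1a1 at 1043 ± 166.2, Col1a2 at 722.8 ± 33.95 and Col6a1 at 519.2 ± 159.7. The first 2 in this order did not differ beyond their spread. In A. cahirinus Col1a2 led at 2693 ± 129.4, then Col1a1 at 1599 ± 164.2, Col5a2 at 987.5 ± 63.26 and Col3a1 at 932 ± 142.2, with Col5a2 and Col3a1 within their spread. These orders depend on the annotated length, which for Col1a2 was 12426 bases in mouse and 5224 in A. cahirinus. In CPM alone, Col1a2 (8981) lay above Col1a1 (6844) in untreated C56BL6 cultures at 12 d as well. At 24 h Col1a1 led in both mouse populations (1159 ± 250.7 in C56BL6 and 2104 ± 569.9 in wild mice) and Col3a1 was the seventh gene in both (147.4 ± 77.02 and 220.0 ± 68.84). At the other end, 9 genes in C56BL6, 7 in wild mice and 6 in A. cahirinus averaged under 10 counts per library. Col9a1 was among these in all 3 populations. Col22a1, a FACIT collagen of muscle and tendon junctions, was among them in both mouse populations, and Col6a4, Col6a5 and Col6a6, the later chains of type VI, in C56BL6 and A. cahirinus.

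In C56BL6 fibroblasts 12 d after 20 Gy, 16 of the 36 collagen genes tested fell and 5 rose against the untreated cultures. The fall ran through types I, III, V and VI, the multiplexins and Col8a2, with Col11a1, Col16a1, Col23a1 and Col27a1. Type IV showed no call, and Col7a1, Col2a1, Col9a3, Col11a2 and Col20a1 rose. Across all genes 26.5% were called in this comparison, 13% higher and 13.6% lower. The median log2 change of the tested collagen genes was -0.84, against -0.01 over all genes tested. Below, CPM values are listed in the order of replicates 1 to 4.

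Type I collagen fell in every replicate. Col1a1 was at 7774, 7724, 6323 and 5556 CPM untreated and at 3164, 2522, 2766 and 2826 after 20 Gy. The highest irradiated library lay far below the lowest untreated one, and the log2 change was -1.24 (SE 0.18, adjusted p = 0.00288). Col1a2 was at 9287, 9188, 9088 and 8360 CPM untreated and at 2518, 2685, 3184 and 3529 after 20 Gy, again without overlap (-1.55, SE 0.18, adjusted p = 0.00156). Col3a1 spread widely between animals: 5887, 11110, 27660 and 23000 CPM untreated and 533.3, 1358, 3829 and 3362 after 20 Gy. Replicates 3 and 4 were high and replicate 1 low in both groups, and the groups did not overlap (-2.86, SE 0.73, adjusted p = 0.0233). The call of Col3a1 was lost without replicate 2, 3 or 4 (adjusted p up to 0.103) with the log2 change at -2.93 to -2.84.

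Of the remaining fibrillar chains, Col5a1 and Col5a2 of type V fell. Col5a1 went from 2840, 2747, 2174 and 2143 CPM to 1352, 1250, 1316 and 1316, and Col5a2 from 2999, 2851, 2761 and 2322 to 2113, 1578, 1645 and 1523. Both groups of values were separate in each gene (-0.88, SE 0.14, adjusted p = 0.00366, and -0.63, SE 0.15, adjusted p = 0.0201). Col5a3, a minor chain of type V, and Col11a1, a chain of type XI, fell by 1.59 and 1.48 on the log2 scale, and Col27a1 by 1.82. Col2a1, the chain of cartilage collagen, rose from 8.65, 11.5, 4.54 and 4.54 CPM to 47.5, 18.4, 21.4 and 13.9, with every irradiated library above every untreated one (1.84, SE 0.46, adjusted p = 0.0225). Col11a2, also known from cartilage, rose by 1.14 (SE 0.29, adjusted p = 0.024), while the 5 chondrocyte markers summed to 10.86 to 54.02 CPM untreated and 22.91 to 33.15 after 20 Gy. Their part in the result was not tested.

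Among the network and filament collagens the classes went apart. Col6a1 was at 3323, 1915, 1961 and 1898 CPM untreated and at 553.1, 420.1, 515.7 and 565.7 after 20 Gy. Replicate 1 was the highest untreated library, and all irradiated libraries lay below all untreated ones (-2.11, SE 0.22, adjusted p = 0.00123). Col6a2 and Col6a3 fell with it, by 2.4 (SE 0.33, adjusted p = 0.00243) and 1.47 (SE 0.37, adjusted p = 0.0221), so all 3 abundant chains of type VI were lower. Type IV was not called: Col4a1 lay at 1374, 1615, 1099 and 1159 CPM untreated and at 1472, 1363, 1234 and 1248 after 20 Gy, within the same range (0.06, adjusted p = 0.796). Col4a2 was at 857.6, 1172, 801.0 and 858.4 against 1042, 1028, 912.4 and 1006 CPM (0.15, adjusted p = 0.442), and 0 of 6 tested type IV chains passed. Of the 2 chains of type VIII, Col8a2 fell from 24.9, 64.8, 12.3 and 10.6 CPM to 4.23, 5.48, 2.21 and 1.82 (-2.99, SE 0.66, adjusted p = 0.0138), while Col8a1, much more abundant, had 516.8, 1055, 676.8 and 770.4 CPM untreated and 311.6, 683.1, 632.6 and 765.6 after 20 Gy, which overlapped (-0.30, adjusted p = 0.505).

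Type VII collagen rose. Col7a1 was at 33.3, 15.2, 11.3 and 14.6 CPM untreated and at 85.2, 38.1, 58.1 and 76.0 after 20 Gy, with no overlap and replicate 1 highest in both (1.83, SE 0.39, adjusted p = 0.0115). In replicate 1, whose libraries held keratinocyte markers summing to 926.9 CPM untreated and 325.7 after 20 Gy, Col17a1, a membrane collagen of keratinocytes, stood at 220.5 and 38 CPM, against at most 0.599 and 1.13 in the other replicates. The keratinocyte sums of replicates 2 to 4 were 1.45 to 1.826 CPM untreated and 3.423 to 5.382 after 20 Gy, and Col7a1 was higher in each of these 3 pairs as well. With the replicate number as a block and without replicate 1, 9 collagen genes rose and 19 fell (52.1% of all genes called).

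The FACIT chains had no common direction. Col12a1, which coats fibres in stretched tissue, was at 3620, 1365, 1777 and 1405 CPM untreated and at 2377, 1692, 2230 and 1649 after 20 Gy, within 1 range (0.0, adjusted p = 1.0). Col16a1 fell (-0.81, SE 0.15, adjusted p = 0.00741), and Col9a3 and Col20a1 rose by 1.84 and 1.56 (adjusted p = 0.00276 and 0.00191). Both were low: Col9a3 lay at 0.441 to 0.92 CPM untreated and 1.94 to 2.76 after 20 Gy, and Col20a1 reached at most 18.1. Col14a1, a regulator of fibre growth, was not called in the comparison of groups (-2.18, adjusted p = 0.112) but fell with the replicate block (-2.67, adjusted p = 0.0123). Both multiplexins fell. Col15a1 went from 27.2, 28.3, 40.4 and 47.9 CPM to 17.9, 11.2, 18.6 and 12.4, and Col18a1, the source of endostatin, from 345.9, 119.8, 147.1 and 145.2 to 90.2, 47.2, 64.9 and 77.5. Neither pair of groups overlapped (-1.22, SE 0.24, adjusted p = 0.00928, and -1.40, SE 0.36, adjusted p = 0.0246). Col23a1 fell (-2.82, adjusted p = 0.0487), but its groups overlapped and the call did not hold with the block (adjusted p = 0.0627). Col28a1, which was not called (-1.31, adjusted p = 0.437), fell with the block (-1.53, adjusted p = 0.00101). Its replicate 1 held 17 CPM and replicates 2 to 4 271.1 to 563.3 when untreated. Col10a1 rose and Col4a6 rose with the block only (1.61, adjusted p = 0.00936, and 0.40, adjusted p = 0.016).

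**Figure D2:**
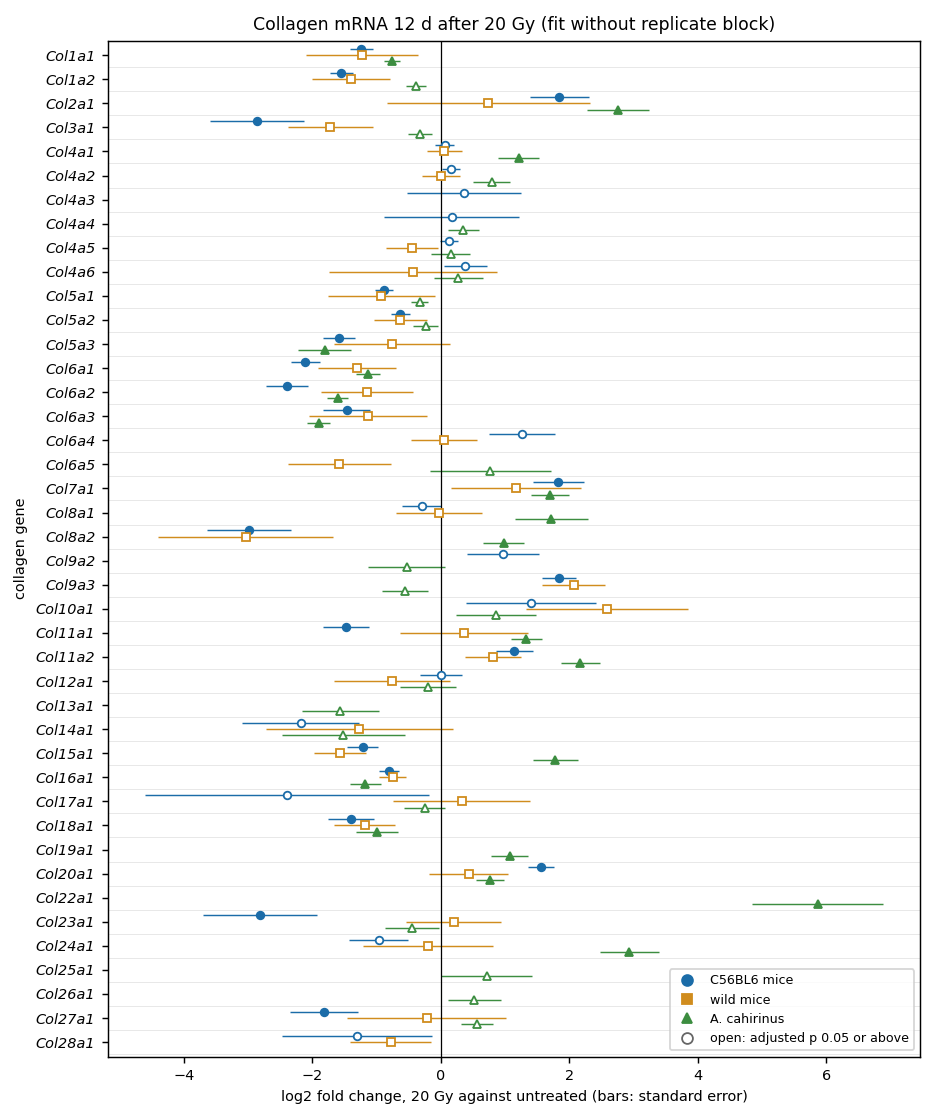
Log2 change from untreated to 20 Gy at 12 d (horizontal axis) of each tested collagen gene, in the order of symbols, in the 3 populations (colour and marker shape). Bars are 1 standard error and filled points passed an adjusted p of 0.05. Col6a1 lies left of 0 in all 3 populations and passed in C56BL6 (-2.11) and in A. cahirinus (-1.14). Col15a1 lies on opposite sides in C56BL6 (-1.22) and A. cahirinus (1.78).

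How many of these 21 calls held depended on the libraries. Of the 21 genes, 21 were still called without replicate 1, 13 without replicate 2, 8 without replicate 3 and 10 without replicate 4. Col1a1, Col1a2, Col5a1, Col5a3, Col6a1, Col6a2, Col9a3 and Col20a1 were called under all 4 of these. The 10 Gy cultures share the untreated libraries, and there 5 of 35 tested genes rose and 17 fell (20.9% of all genes called), with Col1a1 at -1.27 (adjusted p = 0.00438), Col6a1 at -2.0 (adjusted p = 0.00309), Col3a1 at -2.95 (adjusted p = 0.0192) and Col7a1 at 1.66 (adjusted p = 0.0119). Col3a1 at 10 Gy was at 643.3, 1404, 3413 and 3019 CPM, close to its 20 Gy values in each replicate. Of these 22 calls 22, 10, 3 and 8 remained without replicates 1, 2, 3 and 4.

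Passage gave other calls in the C56BL6 cultures. Against the untreated cultures that were not passaged, 6 of 33 tested collagen genes were higher and 9 lower (49.6% of all genes called, 24.1% higher and 25.5% lower), and the same untreated libraries serve both comparisons. The collagen counts were near or below these shares over all genes. Type IV was higher: Col4a1 was at 2696, 3715, 2761 and 3418 CPM, and Col4a2 at 1590, 2399, 1779 and 2133, above every untreated library (1.27, SE 0.18, adjusted p = 0.000978, and 1.10, SE 0.18, adjusted p = 0.00178). Col4a5 and Col4a6 were higher too (1.18 and 1.03, adjusted p = 0.00209 and 0.0371), though Col4a6 lost its call without replicate 3 or 4 (adjusted p = 0.154 and 0.106). Col2a1 reached 356.3, 138.2, 422.2 and 326.6 CPM, far above the untreated libraries (5.42, SE 0.49, adjusted p = 0.000232), and Col7a1 222.6, 146.1, 152.8 and 152.4 CPM (3.18, SE 0.36, adjusted p = 0.000454). Chondrocyte markers summed to 22.33 to 34.81 CPM there, within the untreated range. Fitted with the block and without replicate 1, passaged cultures had 10 members higher and 14 lower (62.4% of all genes).

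Type III and part of type VI were lower in passaged cultures, while type I was not called. Col3a1 was at 472.6, 1479, 2464 and 2357 CPM, below its untreated libraries (-3.32, SE 0.67, adjusted p = 0.0045), and Col6a1 at 671.4, 319.4, 541.0 and 438.2 CPM (-2.20, SE 0.29, adjusted p = 0.000762). Col6a3, the third main chain, was at 1149, 746.4, 578.3 and 701.7 CPM and was not called (0.26, adjusted p = 0.559). Within a library the ratio of Col6a3 to Col6a1 CPM was a median of 0.287 untreated, 0.403 after 20 Gy and 1.66 in passaged cultures (1.07 to 2.34). Every passaged library lay above the untreated ones (0.212 to 0.345), and so did every 20 Gy library (0.351 to 0.636). Col1a1 was at 6502, 8874, 8516 and 9355 CPM, which overlapped the untreated values (0.28, adjusted p = 0.275), and Col1a2 at 4510, 9067, 7978 and 8727 (-0.25, adjusted p = 0.431), with replicate 1 lowest in both. Col28a1, a von Willebrand domain collagen, was at 0.944, 10.2, 38.6 and 21.5 CPM (-4.20, SE 1.23, adjusted p = 0.0217), and Col27a1 at 4.66, 2.43, 4.29 and 2.75 CPM (-3.53, SE 0.60, adjusted p = 0.00216). Col28a1 overlapped the untreated group through untreated replicate 1 and lost its call without replicate 2, 3 or 4 (adjusted p = 0.0979, 0.0606 and 0.0968).

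A further 6 abundant or well-known members were not called in passaged C56BL6 cultures. Col5a1 was at 1457, 2505, 2644 and 2736 CPM with replicate 1 lowest, Col5a2 at 2555, 4278, 3254 and 3479, and Col8a1 at 276.8, 911.5, 726.9 and 819.1. Col12a1 was at 1092, 922.7, 1754 and 1242 CPM, Col15a1 at 70.3, 16, 37.5 and 36.5, and Col18a1, which was lower with the block (-1.26, adjusted p = 0.0795, and -1.38, adjusted p = 0.000256 with the block), at 163.6, 35.2, 53.3 and 62.2. For Col5a2 replicates 2 to 4 were above all untreated libraries and replicate 1 was not, and Col15a1 and Col18a1 were each highest in replicate 1.

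Set directly against the passaged cultures, the 20 Gy cultures of C56BL6 were lower in 12 and higher in 7 of 36 tested genes (41.6% of all genes called). Type I and type IV were lower, with Col1a1 at -1.55 (adjusted p = 0.000213), Col1a2 at -1.33 (adjusted p = 0.00296) and Col4a1 at -1.23 (adjusted p = 0.000341), and Col6a3 at -1.76 (adjusted p = 0.00177). Col7a1 was lower as well (-1.38, adjusted p = 0.00316), with its 20 Gy values between those of the untreated and the passaged cultures. Col3a1 (0.44, adjusted p = 0.628) and Col6a1 (0.07, adjusted p = 0.81) were not called. Of the 19 calls 18, 16, 16 and 14 held without replicates 1, 2, 3 and 4, those of Col1a1, Col1a2, Col4a1, Col6a3 and Col7a1 in each case. Proliferation markers (Mki67, Top2a, Ccnb1 and Cdk1) summed to 466.5 to 632.8 CPM in passaged, 43.65 to 218.5 in untreated and 23.27 to 60.02 in 20 Gy cultures. Adipocyte markers summed to 4.666 to 20.77 CPM in untreated and to at most 1.186 in 20 Gy cultures. The part of either list in the collagen values was not tested.

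**Figure D3:**
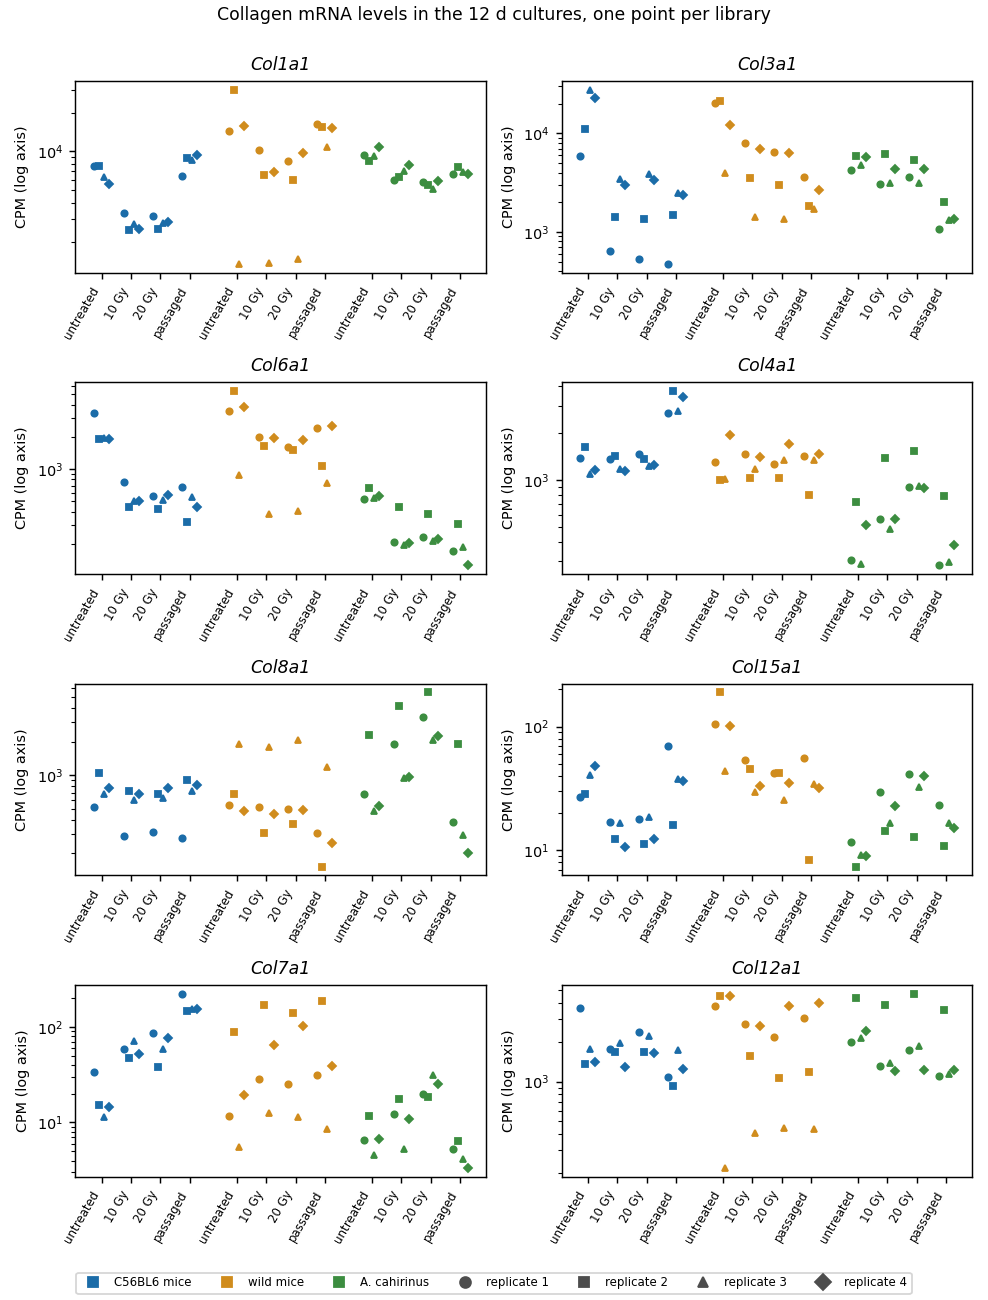
CPM (log axis) of 8 collagen genes in each 12 d library, by population (colour) and replicate (marker shape), in untreated, 10 Gy, 20 Gy and passaged cultures. Col3a1 in C56BL6 lies at 5887 to 27660 untreated and at 472.6 to 2464 passaged, and Col15a1 in A. cahirinus lies at 7.41 to 11.7 untreated and at 13 to 41.2 after 20 Gy.

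In the wild fibroblasts 12 d after 20 Gy no collagen gene passed the main comparison, 0 of 34 tested, where 0.0694% of all genes were called. Unadjusted p was under 0.05 for 6 of them, and DESeq2 called 3. With the replicate number as a block, 4 rose and 6 fell (15.4% of all genes called). With the block and without replicate 3, 3 rose and 11 fell (14.7% of all genes called). The median log2 change was -0.54, against -0.01 over all genes.

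Types III, VI, VIII and XV were among the genes lower with the block, and type VII among those higher. Col3a1 was at 20170, 21070, 3987 and 12220 CPM untreated and at 6516, 3024, 1360 and 6258 after 20 Gy. Each pair fell, but untreated replicate 3 lay inside the irradiated range (-1.72, adjusted p = 0.305, and -1.70, adjusted p = 0.025 with the block). Col6a1 was at 3500, 5346, 885.9 and 3812 CPM untreated and at 1590, 1488, 408.6 and 1869 after 20 Gy, with the same overlap through replicate 3 (-1.31, adjusted p = 0.395, and -1.25, adjusted p = 0.0127 with the block). Type I was not called in either fit: Col1a1 was at 14450, 30070, 1343 and 15780 CPM untreated and at 8483, 5976, 1481 and 9805 after 20 Gy. Replicate 3 had the lowest value in both groups and was the pair that did not drop (-1.23, adjusted p = 0.596). Col1a2 was at 18390, 30480, 3862 and 17210 against 7988, 6136, 3519 and 8461 CPM (-1.40, adjusted p = 0.353), and with the block and without replicate 3 it fell (-1.48, adjusted p = 0.0472).

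Col7a1 in wild cultures was at 11.8, 88.5, 5.50 and 19.2 CPM untreated and at 25.1, 140.2, 11.3 and 102.5 after 20 Gy. Every pair was higher after 20 Gy, while replicate 2 was high in both groups, and the groups overlapped (1.17, adjusted p = 0.679, and 1.33, adjusted p = 0.0256 with the block). Col8a2 was at 103.2, 160.7, 0.889 and 139.3 CPM untreated and at 10.4, 10.7, 0.521 and 26.4 after 20 Gy (-3.04, adjusted p = 0.377, and -2.98, adjusted p = 0.00715 with the block). Col15a1 was at 104.9, 189.6, 43.6 and 100.4 against 41.9, 42.1, 25.8 and 35.3 CPM, without overlap (-1.57, adjusted p = 0.159, and -1.42, adjusted p = 0.0107 with the block). Col18a1 fell when the block was used and replicate 3 left out (-1.43, adjusted p = 0.00617): it was at 284.9, 370.4, 67.6 and 348.7 CPM untreated and at 130.3, 146.3, 92.2 and 94.4 after 20 Gy. The genes with no call in either of these fits included Col4a1 at 1299, 1003, 1014 and 1954 against 1272, 1027, 1349 and 1694 CPM, Col5a1 at 3768, 12800, 544.9 and 3907 against 2999, 3160, 887.2 and 3801, and Col5a2, at 5806, 10780, 2575 and 4857 against 4111, 3597, 3467 and 4085. Col8a1, at 540.8, 686.0, 1887 and 476.8 against 495.3, 370.0, 2084 and 486.8 CPM, and Col12a1, at 3791, 4481, 220.4 and 4518 against 2206, 1074, 442.3 and 3781 CPM, were not called either. Replicate 3 was the highest library of Col8a1 and the lowest of Col12a1 in both groups.

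At 10 Gy no wild collagen gene of 34 tested passed (0.264% of all genes called), with 6 at an unadjusted p under 0.05 and 3 called by DESeq2. With the block 3 rose and 6 fell (12.7% of all genes), and without replicate 3 as well 2 rose and 8 fell (9.69%). In passaged wild cultures 3 of 33 tested genes were lower and none higher (10.7% of all genes called). This total, and that of the block fit with all replicates given below, were near or below the share over all genes. Col3a1 was at 3599, 1838, 1699 and 2642 CPM, below all untreated libraries (-2.56, SE 0.55, adjusted p = 0.0286), and Col8a2 at 0.786, 0.902, 0.0361 and 2.89 CPM, where replicate 3 was under the floor of detection (-6.42, SE 1.56, adjusted p = 0.0397). The third was Col16a1 (-0.69, SE 0.18, adjusted p = 0.0468). All 3 calls were lost without replicate 1, 2 or 4 and held without replicate 3. With the block 3 were higher and 6 lower (31.9% of all genes), Col8a1 among the latter (-1.14, adjusted p = 0.0238), and with the block and without replicate 3, 5 and 11 (29.9%). The genes higher with the block were Col2a1 (3.01, adjusted p = 0.00314), Col7a1 at 31.2, 185.4, 8.47 and 38.5 CPM (1.03, adjusted p = 0.00442) and Col4a5 at 511.9, 557.7, 769.9 and 416.9 CPM against 245.0, 452.7, 534.9 and 200.4 untreated (0.73, adjusted p = 0.0224). Col2a1 was higher in replicates 1, 2 and 4, while replicate 3 was under the floor in both groups (0.0342 CPM untreated and 0.0 passaged). Chondrocyte markers summed to 2.492 to 433.7 CPM over all wild libraries, and their part was not tested. Against passaged cultures, wild cultures at 20 Gy had 1 gene lower, Col5a2 (-0.81, adjusted p = 0.045), and 1 higher, Col9a3 (1.68, adjusted p = 0.0367), of 33 tested (10.5% of all genes called). Both calls were lost without any 1 replicate number, and Col9a3 lay at no more than 2.83 CPM in these libraries. With the block 6 were higher and 7 lower (38% of all genes). Both totals for 20 Gy against passaged cultures were near or below the share over all genes.

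In A. cahirinus fibroblasts 12 d after 20 Gy 12 of 39 tested collagen genes rose and 7 fell, where 31.8% of all genes were called, 13.8% higher and 18.1% lower. With the replicate block 14 rose and 14 fell (49.2% of all genes called), so that as many fell as rose. The median log2 change was 0.27. The genes that rose were Col2a1, Col11a1, Col11a2 and Col24a1 of the fibrillar chains, Col4a1, Col8a1 and Col8a2 of the networks, the FACIT chains Col19a1, Col20a1 and Col22a1, Col15a1 and Col7a1, and those that fell were Col1a1, Col5a3, the 3 abundant chains of type VI, Col16a1 and Col18a1.

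Of the 5 abundant fibrillar chains only Col1a1 fell without the block, Col1a2, Col3a1 and Col5a1 fell with it, and Col5a2 was not called. Col1a1 was at 9406, 8503, 9238 and 10830 CPM untreated and at 5849, 5499, 5075 and 5940 after 20 Gy, with no overlap (-0.76, SE 0.13, adjusted p = 0.00412). Col1a2 was at 14240, 14500, 13070 and 14470 against 11540, 13010, 8165 and 10110 CPM. All irradiated libraries were below the lowest untreated one, yet the gene was called with the block only (-0.39, adjusted p = 0.103, and -0.41, adjusted p = 0.0366 with the block). Col3a1 likewise lay at 4287, 5944, 4734 and 5715 against 3593, 5331, 3141 and 4351 CPM, lower in each pair and overlapping between groups (-0.33, adjusted p = 0.216, and -0.34, adjusted p = 0.04 with the block). Col5a1 was at 3223, 3579, 2767 and 3303 against 2204, 2836, 2506 and 2654 CPM, called with the block (-0.33, adjusted p = 0.0366), and Col5a2 at 6212, 7182, 6460 and 6440 against 4983, 7961, 4944 and 4414 CPM, not called. Col5a3 went from 781.1, 524.7, 730.7 and 1446 CPM to 255.7, 112.7, 289.4 and 331.0, without overlap (-1.81, SE 0.41, adjusted p = 0.0113).

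Of the less abundant fibrillar chains 4 rose, Col5a3 fell and Col27a1 was not called without the block (0.56, adjusted p = 0.128). With the block 5 of all 11 fibrillar chains rose. Col11a1 was at 180.4, 155.9, 109.9 and 101.4 CPM untreated and at 445.5, 388.9, 267.8 and 267.8 after 20 Gy, with every irradiated library higher (1.33, SE 0.24, adjusted p = 0.00467), and Col11a2 rose by 2.17 (SE 0.30, adjusted p = 0.00144). Col24a1, a fibrillar chain known from developing bone, was at 4.36, 3.65, 4.53 and 4.11 CPM untreated and at 41.7, 10.5, 51.9 and 21.9 after 20 Gy (2.93, SE 0.46, adjusted p = 0.0026). Col2a1 rose by 2.76 (SE 0.48, adjusted p = 0.00397) at no more than 0.81 CPM, as 1 of the 6 members that averaged under 10 counts per library, and the chondrocyte markers summed to 50.63 to 131.0 CPM untreated and 40.89 to 74.05 after 20 Gy.

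Col4a1 of type IV and both chains of type VIII rose. Col4a1 was at 306.3, 722.7, 290.4 and 512.3 CPM untreated, 558.8, 1379, 481.1 and 562.6 after 10 Gy and 902.6, 1538, 910.9 and 886.9 after 20 Gy. Replicate 2 was the highest in each group, and the 20 Gy libraries did not overlap the untreated ones (1.21, SE 0.32, adjusted p = 0.022). Col4a2 was at 279.4, 551.7, 261.9 and 431.5 against 554.8, 981.3, 557.2 and 531.9 CPM and rose with the block (0.81, adjusted p = 0.0032). The ratio of Col4a1 to Col4a2 within a library was 1.10 to 1.31 untreated and 1.57 to 1.67 after 20 Gy. Col8a1 was at 682.1, 2311, 483.0 and 531.8 CPM untreated and at 3349, 5513, 2051 and 2257 after 20 Gy. It rose in each pair, with overlap through the untreated replicate 2 (1.72, SE 0.57, adjusted p = 0.048). Col8a2 rose by 0.98 (SE 0.32, adjusted p = 0.0458) and was just short of the threshold with the block (adjusted p = 0.0528).

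The 3 abundant chains of type VI fell. Col6a1 was at 519.7, 659.1, 538.4 and 563.8 CPM untreated and at 228.7, 377.2, 211.2 and 220.7 after 20 Gy, and Col6a3 at 495.9, 369.5, 509.1 and 625.4 against 119.6, 168.8, 129.6 and 116.5. Neither gene overlapped between groups, and replicate 2 held the highest irradiated value of both (-1.14, SE 0.19, adjusted p = 0.00322, and -1.90, SE 0.18, adjusted p = 0.00036). Col6a2 fell too (log2 change -1.61, SE 0.16, adjusted p = 0.000396). Both multiplexins were called, in opposite directions. Col15a1 rose from 11.7, 7.41, 9.27 and 9.06 CPM to 41.2, 13, 32.8 and 40.3, with replicate 2 lowest and no overlap (1.78, SE 0.35, adjusted p = 0.00636), and Col18a1 fell from 41.7, 50.3, 21 and 60.4 CPM to 28.8, 20.2, 14.2 and 23, with overlap (-1.0, SE 0.33, adjusted p = 0.0464). Col7a1 rose from 6.52, 11.7, 4.53 and 6.70 CPM to 20.1, 18.4, 31.2 and 25.5 (1.70, SE 0.30, adjusted p = 0.00391). Col12a1 was at 1989, 4352, 2161 and 2452 against 1735, 4695, 1877 and 1223 CPM, not called and highest in replicate 2 in both groups.

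The largest rise among members with a mean of at least 5 CPM was that of Col22a1. It was at 0.642, 0.237, 0.309 and 0.201 CPM untreated, 11.1, 1.39, 3.36 and 2.42 after 10 Gy, and 27.3, 1.46, 40.1 and 11.1 after 20 Gy. Replicate 2 stayed lowest after irradiation (5.87, SE 1.02, adjusted p = 0.00384 at 20 Gy). The skeletal muscle markers Des, Myog, Acta1, Ckm and Myh3 summed to 7780, 3670, 7380 and 7302 CPM untreated and to 12120, 2253, 11740 and 12620 after 20 Gy, also lowest in replicate 2, with Ckm at no more than 4.39 CPM. None of Des, Myog, Acta1 and Myh3 was called at 20 Gy (log2 changes 0.06 to 0.84). Col25a1, a membrane collagen of muscle and neurons, was at 96.1, 22.5, 87.9 and 95.8 CPM untreated and at 158.5, 14, 139.2 and 178.5 after 20 Gy, and was not called. The part of muscle cells in these results was not tested.

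**Figure D4:**
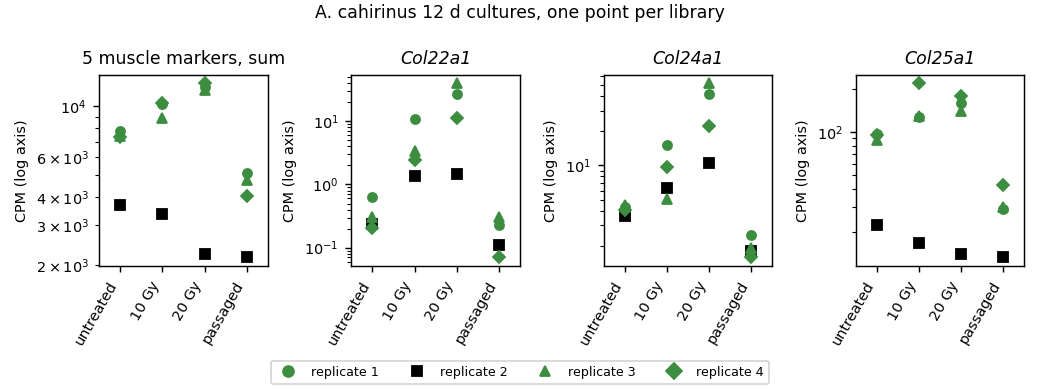
A. cahirinus at 12 d: CPM (log axis) of the 5 skeletal muscle markers summed, Col22a1, Col24a1 and Col25a1 in each library of the untreated, 10 Gy, 20 Gy and passaged groups, with replicate 2 as black squares. Replicate 2 is the lowest 20 Gy library in all 4 panels (2253, 1.46, 10.5 and 14).

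Leaving out replicate 2 left 18 of the 19 calls at 20 Gy and gave 27 called genes in all (16 higher and 11 lower). Without replicate 1, 3 or 4 the calls that held were 10, 11 and 12 of 19, and the calls of Col2a1, Col6a1, Col6a2, Col6a3, Col7a1, Col11a1, Col11a2, Col22a1 and Col24a1 held under all 4. At 10 Gy, which shares the untreated libraries, 2 of 36 tested genes rose and 2 fell (2.87% of all genes called): Col15a1 (1.16, adjusted p = 0.0459), Col22a1 (3.71, adjusted p = 0.0421), Col6a2 (-1.37, adjusted p = 0.0366) and Col6a3 (-1.19, adjusted p = 0.0373). All 4 calls were lost without replicate 1, 3 or 4. With the block 10 rose and 11 fell (27.5% of all genes).

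Passaged A. cahirinus cultures had 12 of 36 tested collagen genes lower than untreated cultures and 1 higher (25.8% of all genes called, 12.1% higher and 13.6% lower), and with the block 24 lower and 1 higher (49.5%). Col3a1 was at 1073, 1990, 1315 and 1352 CPM, below every untreated and every 20 Gy library (-1.87, SE 0.20, adjusted p = 0.00105). Col23a1, a membrane collagen, was at 2.19, 4.12, 2.02 and 2.24 CPM against 58.5, 26.2, 49 and 52.2 untreated (-4.15, SE 0.32, adjusted p = 0.000503). Col1a1 was at 6693, 7590, 6967 and 6712 CPM and Col1a2 at 10500, 12590, 8891 and 9348, all below the untreated libraries (-0.46, adjusted p = 0.0119, and -0.46, adjusted p = 0.0253). Col6a1 was at 172.1, 305.0, 187.8 and 125.8 CPM (-1.55, adjusted p = 0.00371), and Col6a3 was lower too (-1.27, adjusted p = 0.00172), unlike the uncalled Col6a3 of passaged C56BL6 cultures, a contrast that was not tested. The gene that was higher was Col15a1 at 23.3, 10.8, 16.6 and 15.3 CPM (0.80, SE 0.23, adjusted p = 0.035). Type IV was not called without the block, with Col4a1 at 283.7, 788.1, 299.8 and 381.9 CPM, and 2 of its 6 chains were lower with the block. Col8a1 and Col12a1 were lower with the block (-0.82, adjusted p = 0.00231, and -0.79, adjusted p = 0.000479). Without replicate 1, 3 or 4 the calls that held were 7, 8 and 8 of 13, with Col3a1, Col6a1, Col6a2, Col6a3, Col23a1, Col24a1 and Col26a1 held in each case and Col1a1, Col1a2 and Col15a1 lost in at least 1. In addition, leaving out replicate 2 gave 23 called genes, 3 higher and 20 lower.

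Directly against the passaged cultures, 15 of 39 genes were higher and 4 lower in A. cahirinus at 20 Gy (42.5% of all genes called), with a median log2 difference of 0.67. The total was near the share over all genes. Col3a1 (1.53, SE 0.22, adjusted p = 0.0012), Col4a1 (1.29, adjusted p = 0.0169), Col7a1 (2.32, adjusted p = 0.000309), Col8a1 (2.26, adjusted p = 0.0352) and Col22a1 (6.79, adjusted p = 0.0019) were among those higher, and Col5a1 (-0.41, adjusted p = 0.0185) among those lower. With the block the counts were 23 and 8 (56% of all genes). Leaving out replicate 2 gave 30 called genes, and the calls that held without replicates 1, 3 and 4 were 11, 10 and 11 of 19. Those of Col3a1, Col7a1 and Col22a1 held in each case, and those of Col4a1, Col5a1 and Col8a1 were lost in at least 1. Proliferation markers summed to 184.1 to 255.3 CPM untreated, 18.82 to 32.29 after 20 Gy and 242.8 to 462.2 in passaged cultures.

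The change of a gene at 20 Gy was then compared between populations within 1 model of the symbols found once in each table. At 12 d the log2 change of 9 of 42 tested collagen genes differed between A. cahirinus and C56BL6, 8 of them larger in A. cahirinus and 1 smaller, where 18.8% of all genes were called, 8.11% larger and 10.7% smaller. The total was near the share over all genes, and the number larger in A. cahirinus was above its share. The median difference of the collagen genes was 0.60, against -0.03 over all genes. Among abundant chains Col3a1 differed by 2.54 (SE 0.76, adjusted p = 0.0329), with -2.86 in C56BL6 and -0.33 in A. cahirinus. Col1a2 differed by 1.17 (SE 0.25, adjusted p = 0.00559), Col15a1 by 3.0 (SE 0.44, adjusted p = 0.000721), Col11a1 by 2.81 (SE 0.46, adjusted p = 0.00126), Col8a2 by 3.96 (SE 0.75, adjusted p = 0.0031) and Col24a1 by 3.9 (SE 0.69, adjusted p = 0.00199). The others were Col27a1 (2.38, adjusted p = 0.0178), Col6a1 (0.98, adjusted p = 0.0397) and, smaller in A. cahirinus, Col9a3 (-2.41, adjusted p = 0.00312). Col9a3 lay at no more than 2.76 CPM in the C56BL6 libraries compared.

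Type VI fell in both populations, with the difference called for Col6a1 and not for Col6a2 (0.80, adjusted p = 0.145, and 0.72, adjusted p = 0.016 with the block) or Col6a3 (-0.42, adjusted p = 0.53). The rise of Col7a1 was not shown to differ (-0.14, SE 0.51, adjusted p = 0.883), nor was the fall of Col1a1 without the block (0.48, adjusted p = 0.121, and 0.48, adjusted p = 0.044 with it). Col4a1 was just short of the threshold (1.16, adjusted p = 0.0501) and was called with the animal as a block (1.21, adjusted p = 0.00124), and Col8a1 likewise (2.01, adjusted p = 0.058, and 2.27 with the block, called). With the block 14 genes had a larger and 3 a smaller change in A. cahirinus (38% of all genes called). The calls of Col8a2, Col9a3, Col11a1, Col15a1 and Col24a1 held without any 1 replicate number. That of Col6a1 was lost in each case, those of Col3a1 and Col27a1 without replicate 2, 3 or 4, and that of Col1a2 without replicate 3. A. cahirinus and wild mice differed in 2 of 43 tested genes (3.31% of all genes called): Col15a1 (3.36, SE 0.57, adjusted p = 0.00984) and Col9a3 (-2.62, SE 0.62, adjusted p = 0.0365). Both calls were lost without replicate 1 or 4 and 1 of them without replicate 3, and with the block 11 changes were larger and 3 smaller (23.4%). Wild and C56BL6 mice differed in 0 of 39 tested genes, with 1 at an unadjusted p under 0.05, 0 by DESeq2 and 0 with the block, where 0.0% of all genes were called and 0.101% with the block.

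At 24 h the main comparisons called no collagen gene in any population. At 20 Gy these were 0 of 34 in C56BL6 (0.0895% of all genes called, 3 at an unadjusted p under 0.05, 2 by DESeq2), 0 of 36 in wild mice (0.0%, 4 and 0) and 0 of 37 in A. cahirinus (3.59%, 3 and 1). Once the replicate number entered as a block, 3 rose and 8 fell in C56BL6 (17.6% of all genes), 6 rose and 7 fell in wild mice (12.5%), and 13 rose and 1 fell in A. cahirinus (24.1%). At 10 Gy, with the same untreated libraries, the main counts were again 0 of 33, 35 and 37 genes (0.007%, 0.0% and 3.73% of all genes; 2, 5 and 2 at an unadjusted p under 0.05; 2, 0 and 1 by DESeq2). With the block they were 3 and 7 (11.5%), 0 and 0 (0.0%), and 16 and 1 (27.6%). In the wild mice at 10 Gy the block gave 8 higher and 7 lower (23%) once replicate 1 was left out. Leaving replicate 1 out of the block fit in C56BL6 gave 5 genes higher and 10 lower after 20 Gy (21.8% of all genes), and 5 and 11 after 10 Gy (23.7%). In the wild mice at 20 Gy the block fit gave 10 calls without replicate 3 (4.45%) and 12 without replicate 1 (16.6%).

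Col7a1 was the gene that rose with the block in each population at 24 h after 20 Gy. In C56BL6 it was at 142.3, 101.5, 113.6 and 140.5 CPM untreated, 294.6, 196.8, 238.3 and 259.4 after 10 Gy and 254.4, 180.9, 293.1 and 319.6 after 20 Gy. Both irradiated groups lay above every untreated library (1.06, SE 0.08, adjusted p = 1.72e-06 with the block, and 1.08, adjusted p = 0.0932 without). Wild cultures had 31.7, 153.8, 12.7 and 41.2 CPM untreated and 65.4, 332.2, 55.1 and 133.1 after 20 Gy, each pair higher and the groups overlapping through replicate 2 (1.49, SE 0.15, adjusted p = 0.000321 with the block, and 1.31, adjusted p = 0.992 without). A. cahirinus had 3.74, 3.44, 2.66 and 2.30 CPM against 5.79, 9.87, 6.24 and 4.06, without overlap (1.07, SE 0.15, adjusted p = 0.000858 with the block, and 1.11, adjusted p = 0.0783 without). Col14a1 fell with the block in all 3 populations (-0.77 in C56BL6, -0.92 in wild mice and -0.25 in A. cahirinus).

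**Figure D5:**
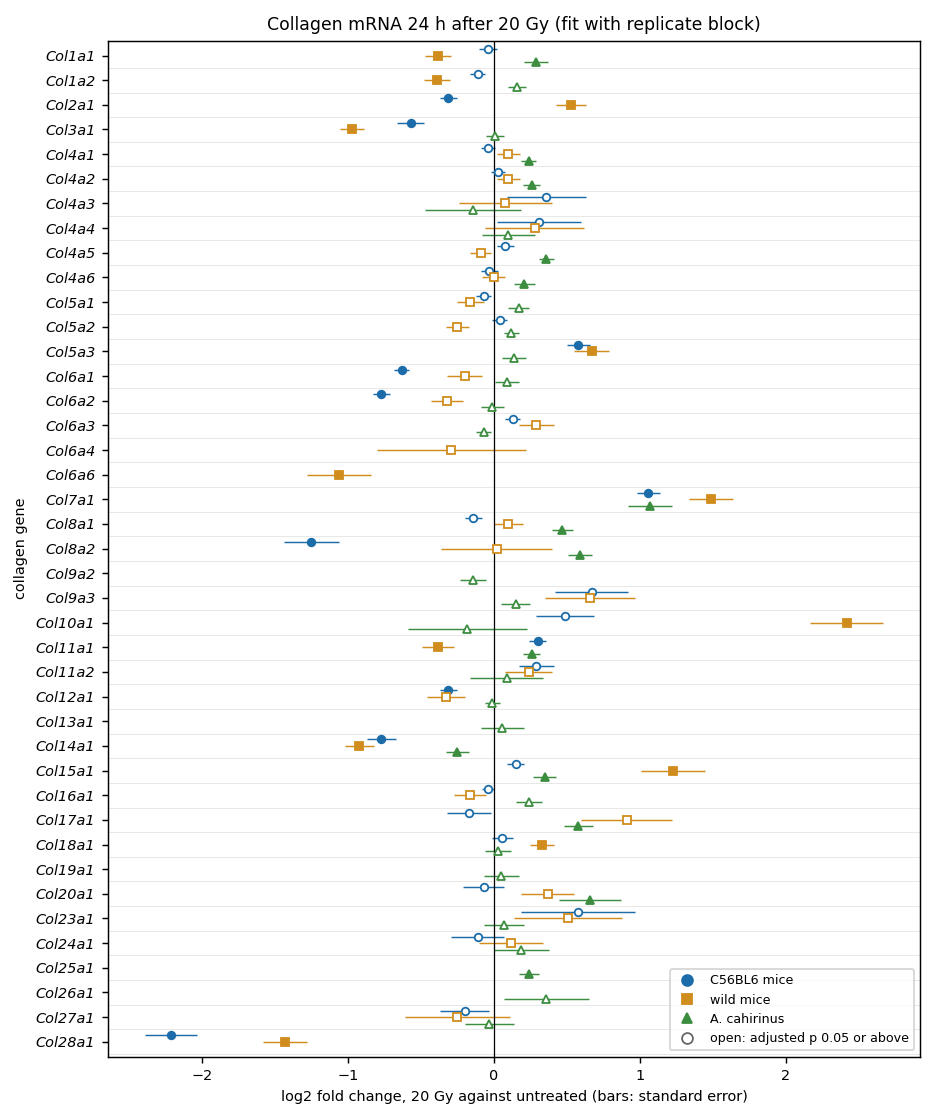
Log2 change from untreated to 20 Gy at 24 h (horizontal axis) of each tested collagen gene in the fit with the replicate number as a block, in the 3 populations; bars are 1 standard error and filled points passed an adjusted p of 0.05. Col7a1 lies at 1.06, 1.49 and 1.07 in C56BL6, wild mice and A. cahirinus.

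Col3a1 at 24 h was lower after 20 Gy in every mouse pair. C56BL6 had 424.8, 1341, 1906 and 2116 CPM untreated and 394.6, 899.2, 1074 and 1226 after 20 Gy (-0.57, adjusted p = 0.000749 with the block), and wild mice 2694, 2269, 1180 and 2496 against 1524, 1077, 588.6 and 1222 (-0.97, adjusted p = 0.000124 with the block). A. cahirinus had 1215, 1867, 1170 and 1179 against 1064, 1859, 1241 and 1272 CPM, which overlapped and was not called. Col6a1 fell with the block in C56BL6 (-0.63, adjusted p = 4.96e-06), and Col1a1 and Col1a2 fell in wild mice (-0.38 and -0.39), whereas Col1a1 rose in A. cahirinus (0.29) along with Col4a1, Col4a2 and Col8a1 (0.24, 0.26 and 0.47). The change differed between A. cahirinus and C56BL6 at 24 h for 1 of 39 genes, Col8a2 (1.81, SE 0.40, adjusted p = 0.0238, where 2.09% of all genes were called), a call lost without replicate 1, 3 or 4, and for 13 larger and 2 smaller with the block (16.8%). Against wild mice A. cahirinus differed in 0 of 41 (0.0% of all genes, 3 at an unadjusted p under 0.05, 0 by DESeq2), and with the block in 7 larger and 1 smaller (7.25%). Wild and C56BL6 mice differed in 0 of 36 (0.0%, 0 and 0), and with the block in 2 and 1 (0.647%).

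Untreated wild and C56BL6 cultures, counted in 1 table, were compared directly, and the calls were near or below the share over all genes. At 24 h Col5a2 was higher in wild mice (1.08, SE 0.24, adjusted p = 0.04), the single call of 33 tested genes (5.7% of all genes called). Unadjusted p was under 0.05 for 5 genes, DESeq2 called 3, and the call of Col5a2 was lost without any 1 replicate number. At 12 d 0 of 32 were called (2.93% of all genes), with 7 at an unadjusted p under 0.05 and 2 by DESeq2. The untreated wild libraries spread widely at 12 d (Col1a1 at 1343 to 30070 CPM), so few calls do not show that few genes differ.

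Genes that act on collagen chains were counted from 3 lists. For folding and modification in the endoplasmic reticulum, 12 of 25 tested genes fell and 1 rose in C56BL6 at 12 d after 20 Gy, with a median log2 change of -0.33, where 26.5% of all genes were called, 13.6% lower. They included P4hb, the shared subunit of prolyl hydroxylase (-0.79, adjusted p = 0.00242), Serpinh1, the collagen chaperone HSP47 (-0.87, adjusted p = 0.00779), Plod1, a lysyl hydroxylase (-0.98, adjusted p = 0.0172), and Colgalt1, which adds galactose to hydroxylysine (-0.78, adjusted p = 0.00122). Mia2, a cargo receptor for secretion, rose (0.37, adjusted p = 0.015). Of the list for processing and crosslinking 5 of 12 fell and 2 rose (median -0.38). Pcolce, which speeds removal of the C-propeptide, fell (-1.01, adjusted p = 0.00165), as did Adamts2, which removes the N-propeptide (-1.30, adjusted p = 0.0316), and Loxl1, a crosslinking oxidase (-0.90, adjusted p = 0.00142), while Pcolce2 rose (2.55, adjusted p = 0.0252). Among 9 receptors and uptake genes 2 fell, the integrin chains Itga1 (-1.78, adjusted p = 0.00472) and Itga11 (-1.21, adjusted p = 0.0172), and 2 rose, Itga10 (1.0, adjusted p = 0.00374) and the receptor kinase Ddr1 (0.38, adjusted p = 0.0177).

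In A. cahirinus at 12 d after 20 Gy, where 31.8% of all genes were called, 7 of 26 folding genes fell and 3 rose, among them Serpinh1 (-1.05, adjusted p = 0.000624) and P4ha3 (-1.16, adjusted p = 0.00141) lower and Fkbp10 (0.43, adjusted p = 0.0108) higher. Of 14 processing genes 2 fell and 2 rose, with Adamts3 at -2.81 (adjusted p = 0.000664) and Pcolce2 at 1.39 (adjusted p = 0.000637). Of 9 receptors Itga2 rose (2.41, adjusted p = 0.0189) and Itga11 fell (-0.76, adjusted p = 0.0181). The counts of processing genes and receptors were near or below the share over all genes. Wild mice had 0 calls in all 3 lists of 25, 13 and 9 tested genes (0.0694% of all genes), and with the block (15.4% of all genes) 0 higher and 5 lower, 2 and 3, and 0 and 2. The change differed between A. cahirinus and C56BL6 at 12 d in 10 of 26 folding genes, 8 of them larger in A. cahirinus, including P4hb (1.07) and Colgalt1 (1.01), in 3 of 14 processing genes, all larger (Loxl1 1.34, Pcolce 1.01 and Sparc 0.76), and in 1 receptor of 9, Itga1 (1.96). Over all genes 18.8% differed, and the totals for processing genes and receptors were near or below this share. The change was larger in A. cahirinus in 8.11% of all genes.

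Several collagen genes lie next to each other in the genome (GRCm39, gene positions from GENCODE). The mouse counts were made with Ensembl release 108, whose gene ends may differ from these. Col3a1 (chr1:45350698-45395840, plus strand) and Col5a2 (chr1:45412554-45542442, minus strand) lie 16713 bases apart, and Col3a1 fell by 2.86 and Col5a2 by 0.63 on the log2 scale at 12 d after 20 Gy in C56BL6. In passaged C56BL6 cultures Col3a1 was lower while Col5a2 was not called. Col6a2 and Col6a1 lie 83890 bases apart on the minus strand of chr10 and were called together in C56BL6 and A. cahirinus at 20 Gy and on passage. Col4a1 and Col4a2 lie head to head on chr8 with an overlap of 356 bases, as do Col4a4 and Col4a3 on chr1 with 159, and Col4a6 and Col4a5 lie 1281 bases apart on the X chromosome. The file header names no strand option for counting, so reads in the shared bases of an overlapping pair cannot be assigned to a gene.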

How the data were processed

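RNA was taken from primary skin fibroblasts with a Purelink kit and made into stranded mRNA libraries, per the labels' protocols. The submitters' processing notes name Trim Galore, HISAT2, featureCounts and GRCm39. The authors deposited raw counts of reads per gene, made with featureCounts 2.0.3 per the file headers, for mouse genes of Ensembl release 108 and for named genes of the AcoCah2 annotation of A. cahirinus; the header command names no option for strand, shared or overlapping reads. The other deposited column used, gene length in bases, is the authors' featureCounts length per the file headers. All count columns were matched to samples, with 0 unused. Mouse symbols, taken from GENCODE, were found for 56236 of 56980 identifiers.

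Each comparison was fitted on all genes of its 2 groups with edgeR 4.0.16 in R 4.3.3 (TMM scaling, filterByExpr, quasi-likelihood test, Benjamini-Hochberg adjusted p under 0.05 over all genes tested). The standard error (SE) of a log2 change was derived from the test, as its absolute value divided by the square root of the F statistic. Levels are CPM with TMM factors, or that value per kilobase of gene length. Differences between populations were interaction terms over 17493 symbols found once in each table. On simulated counts for C56BL6 at 12 d and 20 Gy (15119 genes), the test recovered 55% of genes changed by a log2 of 1 and 89% of those changed by 2. The simulation changed 100 genes by each amount, all with a mean above 100 counts, where 4010 genes were called in the data. It held no deviation shared by same-numbered libraries. These rates therefore do not carry over to genes with fewer counts or to paired libraries. Precision is limited by 4 libraries per group, and a floor covers counting error only.

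The replicate numbers carry 1 animal code each within a population, the same at both times by the library names. Same-numbered libraries deviated together: over 18 comparisons and 72 pairs the lowest correlation of their deviations was 0.4, and different numbers averaged -0.3 to -0.12. The fit with the replicate number (or animal) as a block is therefore given beside a result where it changes a call or moves a count by more than 1.5 times. Further alternatives were no filter on low counts, RLE scaling, DESeq2 1.42.0 and leaving out each replicate number. The block fits without C56BL6 replicate 1 or wild replicate 1 or 3 were chosen after seeing the data.

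The collagen genes, their classes and all lists were chosen with earlier results of these data known. Per-library values are given for 12 set genes. They are also given, for the 12 d comparisons of 20 Gy and of passage with untreated cultures in each population, for the 2 called members with the largest rise and the 2 with the largest fall; such members needed 5 CPM on average and all 4 pairs moving one way (with the block where none passed without it). Other members were named by class, in part after their values were seen. The sequence tables of RefSeq held promoters but no proteins used here.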

Additional observations from a re-analysis of the deposited data

Results flagged for a closer look

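Of 273 checks of whether 1 of 4 libraries lay far from the rest (Dixon's test at the 95% level, which chance passes in about 1 of 20), 24 passed. In A. cahirinus replicate 2 was the highest library for Col6a1 (437.4 CPM), Col4a1 (1379), Col4a2 (897.7) and Col12a1 (3844) at 12 d after 10 Gy, for Col6a1 (377.2), Col4a1 (1538) and Col4a2 (981.3) after 20 Gy, for Col12a1 (3500) and the collagen share (4.1%) in passaged cultures, and for Col3a1 (1867) in untreated cultures at 24 h. In the wild mice at 12 d replicate 3 was the lowest for Col12a1 (220.4) and Col18a1 (67.6) untreated, for Col5a1 (773.9) and Col6a1 (382.5) after 10 Gy and for Col5a1 (887.2) and Col6a1 (408.6) after 20 Gy, where it was the highest for Col8a1 (2084). Wild replicate 2 was the lowest for Col4a1 in passaged cultures (800.9). In C56BL6 replicate 1 was the highest for Col6a1 in untreated cultures at 12 d (3323), and the lowest for Col5a1 (1457) and the collagen share (2.6%) in passaged cultures and for Col8a1 (291.7) in untreated cultures at 24 h. C56BL6 replicate 2 was the highest for Col4a2 at 12 d after 10 Gy (1058) and the lowest for Col12a1 at 24 h after 20 Gy (768.9).

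Several changes at 20 Gy differed between populations by the interaction test. For A. cahirinus minus C56BL6 at 12 d these were Col1a2 (1.17), Col3a1 (2.54), Col6a1 (0.98), Col8a2 (3.96), Col9a3 (-2.41), Col11a1 (2.81), Col15a1 (3.0), Col24a1 (3.9) and Col27a1 (2.38), and at 24 h Col8a2 (1.81). For A. cahirinus minus wild mice at 12 d they were Col9a3 (-2.62) and Col15a1 (3.36).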

How the results depend on the processing

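Counts of called collagen genes kept within 1.5 times under RLE scaling in all 26 comparisons, and no named gene reversed under any alternative. Without a filter on low counts C56BL6 at 24 h gave 1 call at each dose (0 with it), wild 20 Gy against passaged gave 1, A. cahirinus at 10 Gy and 12 d gave 2, and wild against C56BL6 at 24 h gave 0. DESeq2 called 2 and 2 in C56BL6 at 24 h, 3, 3, 5 and 6 in wild mice at 12 d (20 Gy, 10 Gy, passaged, 20 Gy against passaged), 1 and 1 in A. cahirinus at 24 h, 10 there at 10 Gy and 12 d, 15 for A. cahirinus minus C56BL6 at 12 d, and 3 and 2 for wild against C56BL6 at 24 h and 12 d. With the replicate block the counts were 11 and 10 in C56BL6 at 24 h (20 and 10 Gy), 13 in wild mice at 24 h after 20 Gy, 10, 9, 9 and 13 in wild mice at 12 d in the order above, 14 and 17 in A. cahirinus at 24 h, and 21, 25 and 31 there at 12 d (10 Gy, passaged, 20 Gy against passaged). The block gave 15 and 17 for A. cahirinus minus C56BL6 at 24 h and 12 d, 8 and 14 for A. cahirinus minus wild mice, and 3 for wild minus C56BL6 at 24 h. The block without C56BL6 replicate 1 gave 15 and 16 at 24 h and 24 in passaged cultures. The block without wild replicate 3 gave 10 at 24 h after 20 Gy and 14, 10, 16 and 15 at 12 d, and without wild replicate 1 it gave 12 and 15 at 24 h.

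Leaving out each replicate number without the block gave 9 to 24 calls in C56BL6 at 12 d after 20 Gy, 3 to 24 after 10 Gy, 12 to 21 in passaged cultures and 14 to 21 for 20 Gy against passaged. The ranges in wild mice at 12 d were 0 to 0, 0 to 1, 0 to 6 and 0 to 4. A. cahirinus at 12 d gave 10 to 27 after 20 Gy, 0 to 14 after 10 Gy, 7 to 23 passaged and 10 to 30 for 20 Gy against passaged. Interactions gave 5 to 9 (A. cahirinus minus C56BL6 at 12 d), 0 to 1 at 24 h and 0 to 2 (minus wild mice at 12 d), and wild against C56BL6 gave 0 to 2 at 24 h and 0 to 1 at 12 d. The cause of these differences was not tested. Depth limits the 9, 7 and 6 collagen genes that averaged under 10 counts per library in C56BL6, wild mice and A. cahirinus, whose values rest on few reads.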
